A study of Mus musculus with 2 samples.

Results

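Transcripts of 9 genes of blood coagulation and of the breakdown of clots were described in lung cells of adult mice: F3, F5, F7, F10, F13a1, Thbs1, Plau, Plaur and Tfpi. They were chosen by name, as members of these pathways, out of 33696 genes in the files, and all 9 had UMIs (unique molecular identifiers, each standing for 1 captured transcript) in both libraries. Analysed here were 1 library labelled GFI1 KO and 1 labelled GFI1 WT, each from the enzymatically dissociated lung of an adult mouse, with live cells sorted and processed with a 10x Genomics 3′ kit. GFI1 is a repressor of transcription that acts in blood cell development, and the study calls its mice germline knockouts, so that every cell type of the KO mouse carries the same genotype. Because each label rests on a single library, no test, p-value or SE could be computed, and every difference below is a difference between these libraries, in which the genotype and the library cannot be told apart.

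Clotting outside the vessel starts when tissue factor, the membrane protein encoded by F3, binds factor VII. That complex activates factor X, and activated factor X, with factor V as its cofactor, turns prothrombin into thrombin. Thrombin makes fibrin, which the transglutaminase factor XIII (its catalytic A subunit is encoded by F13a1) cross-links, while the inhibitor encoded by Tfpi blocks tissue factor with factor VII. Clots are dissolved by plasmin, which is released from plasminogen by urokinase (Plau), a protease held at the cell surface by its receptor (Plaur). Thrombospondin 1 (Thbs1) is a matrix protein that platelets, monocytes and stromal cells release. In the lung these reactions matter in the airspace as well as in the vessels, since fibrin can form in alveoli after injury.

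After filtering, 10495 cells were kept with the KO label and 19342 with the WT label, with a median of 11076 and 6217 UMIs per cell. The labels could not be checked by Gfi1 itself, whose level was 3.60 CPM (counts per 1000000 UMIs; 95% interval 3.23 to 4.001, 340 UMIs) over all KO-labelled cells and 3.46 CPM (3.16–3.79, 470 UMIs) over all WT-labelled cells. Of the classes named below, classical monocytes held 60 and 0 Gfi1 UMIs. Alveolar macrophages held 1.38 CPM (0.968–1.91) with the KO label and 0.180 CPM (0.0776–0.354) with the WT label. Nonclassical monocytes, interstitial macrophages, endothelium, epithelium and stroma held at most 6 Gfi1 UMIs per library. The 3′ tag checks nothing where it lies outside the deleted part of the gene, and that part is not given in the sources used here. Cells were clustered without the 9 genes and 46 further pathway genes, and classes were named from marker genes. They were classical monocyte-like cells (4809 KO-labelled and 422 WT-labelled cells), nonclassical monocyte-like cells (370 and 353), interstitial macrophage-like cells (27 and 453), alveolar macrophage-like cells (2318 and 3697), endothelium (108 and 2202), epithelium (156 and 183) and stroma (22 and 357). Neutrophils (8 and 1431), B cells (947 and 3140) and T cells (766 and 2442) were used for reference. These numbers are values of single libraries, and 74 cell barcodes occurred in both libraries, 12 of them in the epithelium of each. CPM is taken over the UMIs summed within a class, intervals are exact Poisson intervals that cover counting error only, and levels of different genes are not compared because 3′ UMIs are not scaled per length.

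**Figure D1:**
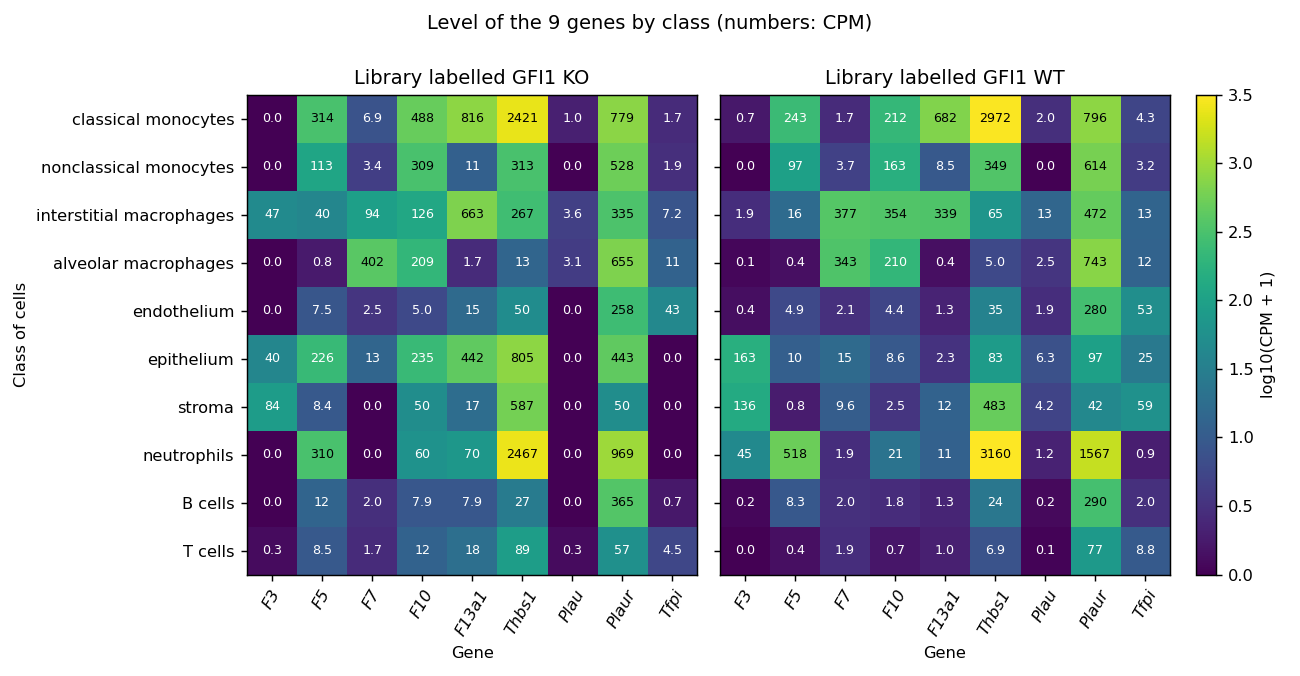
Level of each gene (columns, CPM printed in each cell of the plot) in 10 classes of cells (rows) in the library labelled GFI1 KO (left) and GFI1 WT (right), with the colour giving log10(CPM + 1). F7 is brightest in both macrophage classes, with 402 CPM with the KO label and 343 CPM with the WT label in alveolar macrophages. F13a1 is near 0 in alveolar macrophages, with 1.69 and 0.404 CPM, but not in interstitial macrophages, with 663 and 339 CPM.

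The promoters of F7, F10 and F3 are shown because F7 and F10 are neighbours on chromosome 8 whose transcripts were found in partly different cells, and because F3 alone held the GFI1 core among the members with a sequence. The windows are the 250 bases before the start in RefSeq's GRCm38.p6, 5′ to 3′ on the gene's strand. This build is not the GRCm39 named in the submitters' processing notes, so the positions hold for GRCm38.p6 only. Capitals mark matches, on either strand, to AATCAC (a GFI1 core), GAGGAA (PU.1) and CCAAT (the CCAAT box). F7 lies at chr8:13025784-13026033, F10 at chr8:13037058-13037307 and F3 at chr3:121723287-121723536, all on the plus strand.
F7: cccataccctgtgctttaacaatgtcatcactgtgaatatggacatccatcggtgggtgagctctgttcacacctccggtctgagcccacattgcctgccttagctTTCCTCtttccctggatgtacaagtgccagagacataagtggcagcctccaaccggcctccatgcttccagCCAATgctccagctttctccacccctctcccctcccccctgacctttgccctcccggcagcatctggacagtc
F10: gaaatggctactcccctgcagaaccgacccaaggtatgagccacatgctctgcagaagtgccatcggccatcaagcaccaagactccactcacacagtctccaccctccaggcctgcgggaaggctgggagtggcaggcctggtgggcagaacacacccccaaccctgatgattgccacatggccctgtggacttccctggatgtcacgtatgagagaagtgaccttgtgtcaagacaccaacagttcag
F3: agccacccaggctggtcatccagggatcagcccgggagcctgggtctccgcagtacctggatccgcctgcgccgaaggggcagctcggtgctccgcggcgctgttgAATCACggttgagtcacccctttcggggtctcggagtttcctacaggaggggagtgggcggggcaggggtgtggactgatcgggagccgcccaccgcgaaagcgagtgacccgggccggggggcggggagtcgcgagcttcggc

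The F7 window held GAGGAA on the minus strand, 144 bases before the start, and CCAAT 73 bases before it. The F10 window held none of the 3 motifs, although only 1498 bases, with 0 gene starts, lie between the end of F7 and the start of F10. F3 held AATCAC 144 bases before its start, a motif found in 9.14% of 32851 windows of the same length. GAGGAA was found in 23.3% and CCAAT in 33.8% of those windows. In all, 7 of the 9 members had a sequence, in 9 windows, and F13a1, Plaur and Tfpi held GAGGAA in 1 window each (Plaur at 2 positions). Thbs1 and Plau had no entry. RefSeq also lists an earlier F7 start, so the printed window lies inside the longest range of that gene. A match is a description of letters and not a binding site, and no match says only that these letters are not in this window.

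F3, which starts clotting, was found in the WT-labelled library mainly in epithelium and stroma and was near 0 in monocytes, alveolar macrophages and endothelium of both libraries. Of 994 F3 UMIs with the WT label, 359 (36.1%) lay in epithelium, 326 (32.8%) in stroma and 190 (19.1%) in neutrophils. The KO-labelled library held 51 F3 UMIs in all. In epithelium the level was 39.7 CPM (25.7–58.6) with the KO label and 163 CPM (146–180) with the WT label, with a ratio of 0.244 (0.156–0.366). A single WT-labelled epithelial cell held 89 of the 359 UMIs. In stroma it was 83.8 CPM (40.2–154) and 136 CPM (122–152), and this ratio of 0.615 had an interval from 0.292 to 1.15 that holds 1. The order of epithelium and stroma could not be told from counting error in either library, since their intervals met.

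Within stroma F3 was highest in the cluster led by Ccl11, which held fibroblast markers, with 152 CPM with the WT label, and it was 31.7 CPM in the cluster led by Hhip. WT-labelled neutrophils held 44.7 CPM (38.6–51.6) of F3, in 104 of 1431 cells (7.27%), with no cell above 8 UMIs. The 8 KO-labelled neutrophils held 0 F3 UMIs, which allows up to 36.9 CPM, so no difference could be read there. In KO-labelled interstitial macrophages the 46.8 CPM of F3 came from 13 UMIs of 1 cell, beside 1.90 CPM in the WT-labelled class. Nonclassical monocytes held 0 F3 UMIs in each library, which allows up to 1.79 and 1.96 CPM.

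F7, whose protein pairs with tissue factor, was a transcript of macrophages. Alveolar macrophage-like cells held 83.8% of all F7 UMIs with the KO label and 72.4% with the WT label. Their level was 402 CPM (395–410) and 343 CPM (338–349), giving a ratio of 1.17 (1.14–1.202), below 2-fold. An F7 UMI was seen in 94.7% and 94.3% of these cells, and in 43.7% and 40.9% after each cell was thinned to 1500 UMIs. T cells, which should lack the gene, showed one in 0.783% and 0.819% of cells (0.268% and 0.416% thinned), at median depths of 6247 and 5920.5 UMIs beside 13139 and 13586 in alveolar macrophages.

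Both clusters of alveolar macrophages carried F7. The larger one, led by Ereg, held 389.9 CPM with the KO label and 323 CPM with the WT label, and the one led by Wfdc10, Ltc4s and Ear1 held 460.2 and 477 CPM. An unnamed cluster of cycling cells led by Prg2 held 240.2 and 227 CPM. Interstitial macrophage-like cells held 377 CPM (361–394) with the WT label, the highest of the 10 classes of that library (18.6 CPM at resolution 1.2), and 93.7 CPM (61.2–137) in the 27 KO-labelled cells. Their interval with the WT label did not meet that of alveolar macrophages. F7 was low in classical monocytes: 6.85 CPM (6.12–7.64, 322 UMIs) with the KO label and 1.66 CPM (0.538–3.87, 5 UMIs) with the WT label. The KO-labelled level lay above that of B cells (1.97 CPM) and T cells (1.70 CPM) of the same library, and the WT-labelled level lay near theirs (2.04 and 1.87 CPM).

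F10, whose product makes thrombin, was found in both monocyte classes and both macrophage classes. Conventional dendritic cells held less, at 28.3 CPM with the KO label and 16.4 CPM with the WT label. Classical monocytes held 488 CPM (482–495) with the KO label and 212 CPM (196–229) with the WT label, a ratio of 2.303 (2.13–2.50). Nonclassical monocytes held 309 CPM (286–334) and 163 CPM (145–182), with a ratio of 1.90 (1.66–2.18), just under the 2-fold used here to call a gene, and it was 2.02 to 2.33 under 5 of the alternatives. Alveolar macrophages were level at 209 CPM (203–215) and 209.5 CPM (205–214), giving a ratio of 0.997 (0.964–1.03). With called doublets left out before clustering the ratio in classical monocytes was 1.99, just short of a call. F10 thus differed between these libraries in monocytes and not beyond counting error in alveolar macrophages, where the gene was as well counted (5440 and 9331 UMIs). An F10 UMI was seen in 90.6% of KO-labelled and 47.2% of WT-labelled classical monocytes, and in 45.9% and 17.8% after thinning to 1500 UMIs. The share of T cells with one was 1.70% and 0.287%.

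Interstitial macrophages held 354 CPM of F10 (338–370) with the WT label, above every other main class of that library in the reported clustering. With the KO label they held 126 CPM (87.8–175). At resolution 1.2 both levels were lower and the direction of the ratio changed, as given below. Endothelium and stroma held at most 5.01 CPM, apart from 50.3 CPM in KO-labelled stroma from 6 UMIs, but KO-labelled endothelium held 109 CPM at resolution 1.2. In the WT-labelled library the levels of classical monocytes and alveolar macrophages could not be told apart by their intervals. In the KO-labelled library classical monocytes stood first and nonclassical monocytes second, with intervals that did not meet.

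F5, the cofactor of factor X, was a transcript of classical monocytes and neutrophils. Classical monocytes held 314 CPM (309–319) with the KO label and 243 CPM (226–261) with the WT label, a ratio of 1.29 (1.202–1.396) that turned to 0.899 with called doublets left out before clustering. They held 90.6% of the F5 UMIs of the KO-labelled library, while 52.1% of the WT-labelled F5 UMIs lay in neutrophils, at 518 CPM. Nonclassical monocytes held 113 CPM (99.4–129) and 97.4 CPM (83.8–113). In alveolar macrophages the level was 0.768 and 0.382 CPM, below the 12.5 and 8.31 CPM of B cells, and the WT-labelled value was near the 0.373 CPM of T cells. The F5 protein of plasma is made mainly in liver, and platelets store it.

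F13a1 was found in classical monocytes and interstitial macrophages and was absent above background from alveolar macrophages. Its level in classical monocytes was 816 CPM (808–824) with the KO label and 682 CPM (653–712) with the WT label. This ratio of 1.196 (1.14–1.25) turned to 0.667 with called doublets left out before clustering. Interstitial macrophages held 663 CPM (571–766) and 339 CPM (324–356), giving a ratio of 1.95 (1.67–2.28) that turned to 0.680 at a finer clustering (resolution 1.2). An F13a1 UMI was seen in 22.3% of WT-labelled interstitial macrophages, and the top 10% of cells by that count held 82.5% of the UMIs. Nonclassical monocytes held 10.7 and 8.51 CPM, although the KO-labelled value rose to 168 CPM when only cells with at least 2000 UMIs were clustered, beside 15.7 CPM with the WT label. Alveolar macrophages held 1.69 CPM (44 UMIs) and 0.404 CPM (18 UMIs), below the 17.9 and 1.03 CPM of T cells.

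Thbs1 had its highest levels in classical monocytes, neutrophils and a stromal cluster. Classical monocytes held 2421 CPM (2407–2435) with the KO label and 2972 CPM (2911–3034) with the WT label, a ratio of 0.815 (0.797–0.832). Neutrophils held 2467 CPM in 8 KO-labelled cells and 3160 CPM in 1431 WT-labelled cells, with medians of 14458 and 2940 UMIs per cell. Nonclassical monocytes held 313 CPM (289–338) and 349 CPM (322–376), with a ratio of 0.897 whose interval of 0.804 to 1.002 held 1. Stroma as a whole held 587 CPM (457–741) and 483 CPM (455–511). Inside it the cluster led by Hhip, with Myocd among its leading genes, held 2738 CPM (2074–3548, 5 cells) and 3247 CPM (3051–3452, 68 cells), and the Ccl11-led cluster held 132 and 63.1 CPM. In alveolar macrophages 12.9 and 4.96 CPM were counted, below the 88.9 and 6.91 CPM of T cells, and read as background.

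Platelets carry F5, F13a1 and Thbs1, so 7 platelet and megakaryocyte markers were counted in the same classes. In classical monocytes they summed to 6.72 CPM with the KO label and 5.30 CPM with the WT label, and 0 of 7 were seen in 5% or more of the cells of either library. In nonclassical monocytes and alveolar macrophages they summed to between 2.42 and 9.05 CPM. In interstitial macrophages they summed to 1351 and 554 CPM, with 1 of 7 seen in 5% of the cells of each library and 4 and 1 at 0, and their part in the F5, F13a1 and Thbs1 levels of that class was not tested.

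Plau, the urokinase gene, was low throughout, while its receptor gene Plaur was broad. The highest Plau level in a main class was 13.1 CPM (10.2–16.6, 69 UMIs) in WT-labelled interstitial macrophages, beside 3.60 CPM from 1 UMI with the KO label. Alveolar macrophages held 3.15 CPM (2.51–3.91) and 2.51 CPM (2.07–3.03), with a ratio of 1.25 (0.930–1.68). Among WT-labelled endothelium the aerocyte cluster, led by Slc5a12, held 10.7 CPM and the general capillary cluster, led by Slc6a2, held 0.417 CPM. Both monocyte classes held at most 1.99 CPM. In alveolar macrophages, with 82 and 112 UMIs, this interval left out a 2-fold difference, and in the other main classes the Plau counts were too low to leave out one in both directions.

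Plaur was counted in every myeloid class. Classical monocytes held 779 CPM (771–787) with the KO label and 796 CPM (764–829) with the WT label, giving a ratio of 0.979 (0.939–1.02). Alveolar macrophages held 655 CPM (646–665) and 743 CPM (735–752), a ratio of 0.882 (0.865–0.898). Nonclassical monocytes held 528 CPM (497–560.4) and 614 CPM (579–650.0). Neutrophils held 969 CPM in 8 KO-labelled cells and 1567 CPM in 1431 WT-labelled cells. The aerocyte cluster held 634 CPM (596–675) beside 221 CPM (211–230.2) in general capillary cells of the WT-labelled library, and the 8 KO-labelled aerocytes held 18 UMIs, or 377 CPM. Over endothelium as a whole Plaur was 258 CPM (210.4–313) and 279.6 CPM (269.9–289.6), with a ratio of 0.922 (0.750–1.12). B cells also held the transcript, with 365 and 290.0 CPM, and T cells held 56.5 and 76.8 CPM.

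Tfpi, the inhibitor of tissue factor, was highest in endothelium and stroma of the WT-labelled library, whose intervals met. Endothelium held 42.5 CPM (24.8–68.1, 17 UMIs) with the KO label and 52.9 CPM (48.7–57.4, 592 UMIs) with the WT label, giving a ratio of 0.804 (0.465–1.30). General capillary and aerocyte clusters of the WT-labelled library held 52.5 and 55.2 CPM, which did not differ beyond counting error (ratio 0.953, 0.758–1.21). WT-labelled stroma held 58.6 CPM (49.3–69.1), and the 22 KO-labelled stromal cells held 0 Tfpi UMIs, which allows up to 30.9 CPM. WT-labelled epithelium held 24.9 CPM (18.8–32.4). Alveolar macrophages were level at 11.5 CPM (10.2–12.9) and 11.8 CPM (10.8–12.9), a ratio of 0.972 (0.841–1.12). Classical monocytes held 1.72 CPM (81 UMIs) and 4.31 CPM (13 UMIs), with a ratio of 0.400 (0.221–0.784) beside 4.54 and 8.78 CPM in T cells and 0.656 and 2.04 CPM in B cells, so that the monocyte levels lay between those of the reference classes.

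A gene was called in a class where it had at least 30 UMIs over both libraries, a ratio of KO-labelled to WT-labelled CPM of at least 2 or at most 0.5, and a 95% interval of that ratio that left out 1. In classical monocytes 8 of the 9 genes had enough UMIs: F7 and F10 were called higher, where 4.37% of 11586 genes were called higher, and Tfpi was called lower, where 4.77% were. The F7 ratio was 4.14 (1.75–12.8). The median log2 ratio of the members was 0.11, beside 0.05 over all genes tested there. In nonclassical monocytes 0 of 5 were called in either direction (1.6% and 1.52% of 8213 genes). In alveolar macrophages 3 of 8 were called higher and 0 lower (0.42% and 3.77% of 12375 genes), but these were F5, F13a1 and Thbs1, whose levels there lay below those of B or T cells. In endothelium 0 of 5 were called (1.66% and 2.36% of 10996 genes). In stroma Tfpi was called lower and no gene higher, of 5 (3.15% lower and 2.34% higher of 9488 genes). The F7, F10, Plaur, Tfpi and Plau ratios of alveolar macrophages lay between 0.882 and 1.25.

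**Figure D2:**
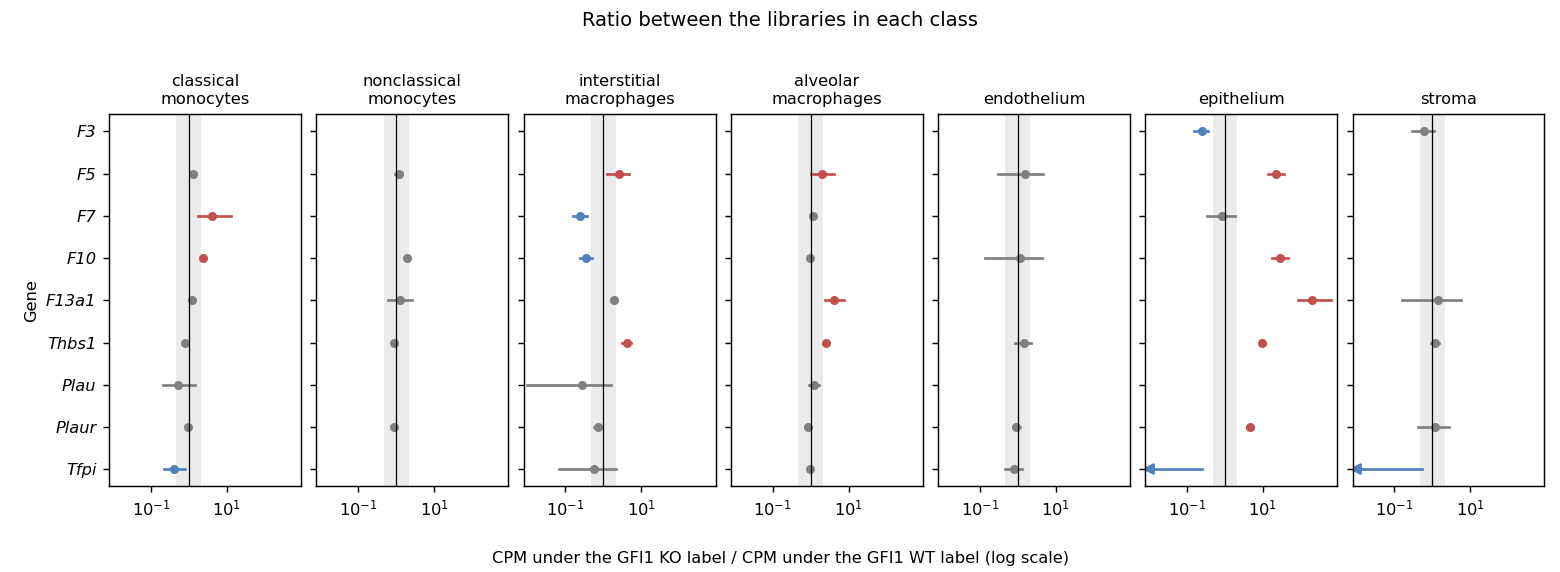
Ratio of CPM under the GFI1 KO label to CPM under the GFI1 WT label (log scale) for each gene with at least 30 UMIs in a class, with exact 95% intervals that cover counting error only. The grey band spans ratios from 0.5 to 2, red points are genes called higher, blue points genes called lower, grey points neither, and an arrow stands for 0 UMIs with the KO label. In classical monocytes F10 (2.303) and F7 (4.14) lie to the right of the band, and in alveolar macrophages F7, F10 and Plaur lie within it.

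The class of classical monocytes was made of different clusters in the libraries. The cluster led by Ly6a2, Prtn3 and Lcn2 held 2777 of the 4809 KO-labelled and 31 of the 422 WT-labelled cells, and the cluster led by Aif1 and Sirpd held 2032 and 391. The first had 8 of 8 classical monocyte markers raised, but among its 10 leading genes only Vcan is one of them, beside the granule gene Prtn3 and the genes Lcn2, Cd177 and Lrg1, which neutrophils are also known to express. The neutrophil marker list summed to 5071 CPM in the KO-labelled and 400.5 CPM in the WT-labelled class, the granule-gene list to 245 and 19.5 CPM, and the list for MHC-II-high monocyte-derived cells to 3016 and 8315 CPM. Their part in the ratios of the whole class was not tested, and each gene is given within the clusters.

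F13a1, F5, F10, Thbs1 and F7 stood higher in the Ly6a2-led than in the Aif1-led cluster of the KO-labelled library, but only F13a1 by 2-fold or more. The share of all genes that stand higher there is not given here, so this is not read as a trait of the members. The ratios of the first to the second cluster were 2.47 (2.41–2.54) for F13a1, 1.62 (1.56–1.68) for F5, 1.42 (1.38–1.46) for F10, 1.26 (1.24–1.27) for Thbs1 and 1.46 (1.15–1.87) for F7. Those of Tfpi, 1.13 (0.703–1.84), and Plau, 0.715 (0.387–1.33), had intervals that held 1. With the WT label the ratios of F13a1, F5, F10 and Thbs1 were 3.13 (2.80–3.48), 1.66 (1.32–2.08), 2.70 (2.19–3.31) and 1.57 (1.47–1.67). Plaur was level between the clusters in each library, with ratios of 0.997 (0.976–1.02) and 1.02 (0.871–1.18). F13a1 is itself among the leading genes of the Ly6a2-led cluster, although it was kept out of the clustering.

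Set side by side within a cluster, the libraries differed in another way than over the class. F13a1 in the Ly6a2-led cluster was 1059.7 CPM with the KO label and 1836 CPM with the WT label, a ratio of 0.577 (0.524–0.637). In the Aif1-led cluster it was 428 and 587 CPM, with a ratio of 0.729 (0.691–0.769). The ratio of the whole class was above 1 and those of both its clusters were below 1. Thbs1 was likewise lower in each, with ratios of 0.589 (0.554–0.627) and 0.733 (0.716–0.751), and F5 was level, with 0.959 (0.778–1.197) and 0.985 (0.906–1.07).

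F10 kept its difference in the Aif1-led cluster, at 388 CPM (379–397) with the KO label and 188 CPM (172–205) with the WT label, giving a ratio of 2.06 (1.89–2.26). In the Ly6a2-led cluster it was 552 CPM (543–560.3) and 507 CPM (419–608), a ratio of 1.09 (0.907–1.32), where the WT-labelled value rests on 31 cells and 116 UMIs, 54 of them in 1 cell. In the Aif1-led cluster F7 and F10 were called higher and Tfpi lower, of 7 (3.14% higher and 2.83% lower of 10466 genes), and in the Ly6a2-led cluster 0 of 7 were called in either direction (3.01% and 3.2% of 10865 genes). F7 was 5.34 CPM and 1.43 CPM (4 UMIs) in the Aif1-led cluster, with a ratio of 3.73.

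**Figure D3:**
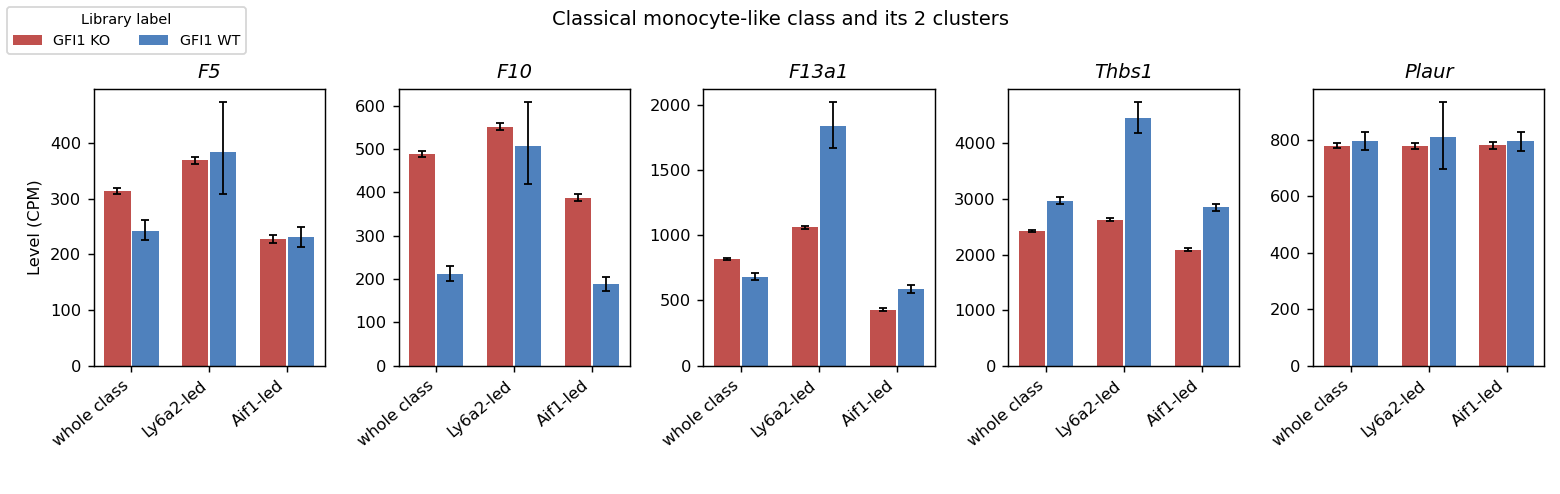
Levels (CPM) of F5, F10, F13a1, Thbs1 and Plaur over the classical monocyte-like class and in its Ly6a2-led and Aif1-led clusters, red for the GFI1 KO label and blue for the GFI1 WT label, with exact Poisson 95% intervals as bars. F13a1 stands at 816 and 682 CPM over the class but at 1059.7 and 1836 CPM in the Ly6a2-led cluster and 428 and 587 CPM in the Aif1-led cluster.

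The epithelium showed the largest ratios among the 7 classes, and its cells differed between the libraries in more than these genes. The KO-labelled cells had a median of 2270 UMIs and the WT-labelled cells 8690. Epithelial markers were present in both: 7 of 7 were seen in 5% or more of the cells, Epcam stood at 146 and 150.0 CPM, and Scgb1a1 stood at 235000 and 317588 CPM. Classical monocyte markers were present as well, 7 of 8 in 5% or more of the KO-labelled and 5 of 8 of the WT-labelled cells, with none at 0 and sums of 3459 and 2928 CPM. Of the 8 markers 6 stood higher with the KO label: Vcan (496 and 13.6 CPM), Ccr2 (111 and 7.25 CPM), Plac8 (146 and 38.1 CPM), Fn1 (327 and 156 CPM), Ms4a4c (34.9 and 6.80 CPM) and Ly6c2 (9.53 and 2.27 CPM). The other 2, Hp (1380.2 and 1632.8 CPM) and Mgst1 (955 and 1072 CPM), stood lower and held most of the sums. In this class 5 of 8 members were called higher and 2 lower with the KO label, where 13.5% and 12.3% of 9261 genes were.

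Those higher were genes with high levels in classical monocytes. Thbs1 was 805 CPM (737–878.5) with the KO label and 82.9 CPM (71.4–95.9) with the WT label, giving a ratio of 9.71 (8.18–11.6). F10 was 235 CPM (199–276) and 8.61 CPM (5.18–13.4), a ratio of 27.3 (16.9–46.6). F5 was 226 and 10.4 CPM, Plaur 443 and 97.4 CPM, and F13a1 442 CPM and 2.27 CPM (5 UMIs). Those lower were F3 and Tfpi. For Tfpi 0 UMIs were counted with the KO label and 55 with the WT label, and the exact interval of the ratio reached from 0 to 0.243. The stromal markers Col3a1 (1.59 and 222 CPM) and Col1a1 (0 and 58.0 CPM) also stood lower with the KO label in this class. So did the endothelial markers Cdh5 (4.76 and 60.3 CPM) and Pecam1 (42.9 and 95.2 CPM). Their part in the F3 and Tfpi ratios was not tested.

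These values depended on how the epithelial cells were chosen. At a coarser clustering (resolution 0.5), which named 40 KO-labelled and 158 WT-labelled cells epithelium, Thbs1 was 15.5 and 63.2 CPM, Plaur 46.4 and 88.8 CPM, and F10 2.58 and 7.44 CPM. At resolution 1.2 the F10 ratio stayed high, at 59.7. With called doublets left out before clustering (38 and 151 cells) Thbs1 was 16.5 and 60.8 CPM and F10 2.75 and 2.43 CPM. The KO-labelled F10 levels at resolution 0.5 and with doublets left out rest on too few UMIs to give a direction. Without cells that held a Ly6c2 or Ccr2 UMI (113 and 169 cells) Thbs1 was 490.2 and 78.0 CPM and F10 164 and 8.21 CPM. F3 was lower with the KO label each time, with 64.5 and 167 CPM, 68.7 and 163 CPM, and 43.8 and 159.6 CPM. Without the cells whose barcode occurs in both libraries the Thbs1 ratio was 9.77 and the F3 ratio 0.246. The part of monocyte RNA in the KO-labelled class was not tested.

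**Figure D4:**
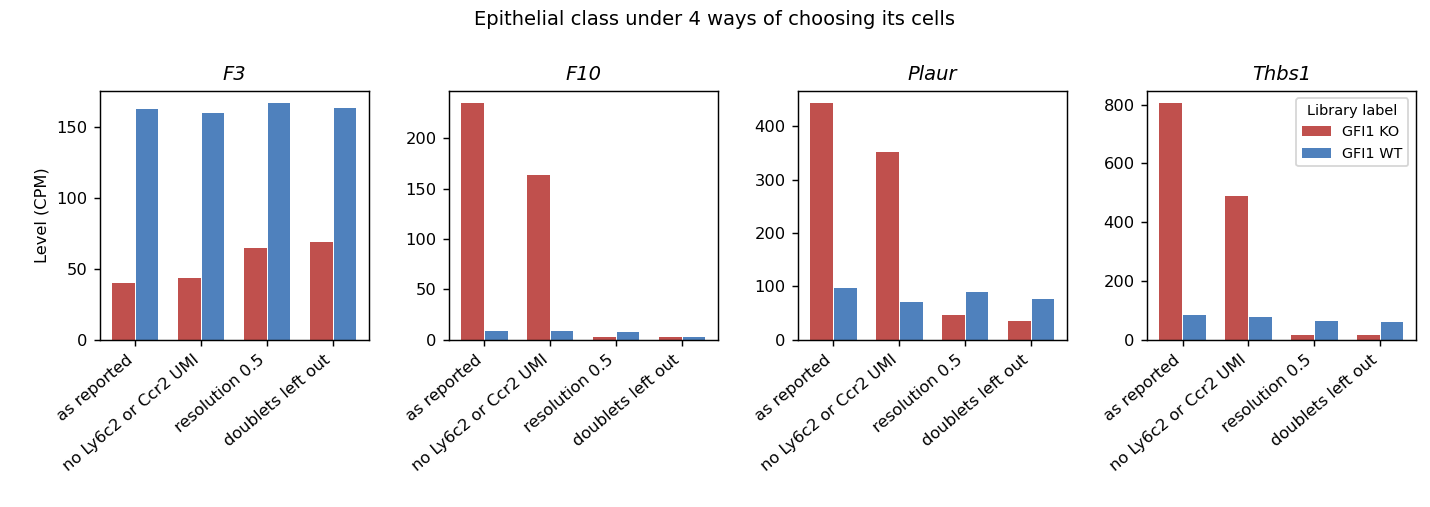
Levels (CPM, bars from 0) of F3, F10, Plaur and Thbs1 in the epithelial class under 4 choices of its cells, red for the GFI1 KO label and blue for the GFI1 WT label. The KO-labelled Thbs1 bar falls from 805 CPM as reported to 15.5 CPM at resolution 0.5, while F3 stays lower with the KO label, at 39.7 to 68.7 CPM beside 159.6 to 167 CPM.

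The interstitial macrophages were few with the KO label, and the class changed with the clustering. Thbs1 and F5 were called higher and F7 and F10 lower, 2 and 2 of 8, where 6.23% and 6.7% of 9726 genes were. Thbs1 was 267 CPM (209–335) and 65.1 CPM (58.4–72.4), but the top 10% of the cells held 97.3% and 97.4% of its UMIs. F5 was 39.6 CPM with the KO label, from 11 UMIs in 3 cells, and 15.6 CPM with the WT label, from 82 UMIs in 15 cells. The F7 ratio was 0.248 (0.162–0.365) and the F10 ratio 0.357 (0.248–0.498). The interstitial marker list summed to 12877 CPM with the KO label and 3849 CPM with the WT label, with 8 of 8 seen in each, and the alveolar macrophage list to 2126 and 3422 CPM, with 7 and 8 of 8 seen. At a finer clustering (resolution 1.2, 70 and 421 cells) F7 fell to 11.7 and 18.6 CPM and F10 to 76.2 and 30.3 CPM, with a ratio of 2.52. The direction of the F10 ratio in this class thus changed with the clustering.

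Among 46 other genes of coagulation, its inhibitors, fibrinolysis and receptors, most of those called were lower with the KO label. Lower were 4 of 20 tested in classical monocytes (4.77% of all genes there), 1 of 13 in nonclassical monocytes (1.52%), 5 of 18 in interstitial macrophages (6.7%) and 4 of 25 in alveolar macrophages (3.77%). Lower too were 2 of 22 in endothelium (2.36%), 6 of 19 in epithelium (12.3%) and 4 of 22 in stroma (3.15%). Higher were 2 in interstitial macrophages (6.23%), 2 in epithelium (13.5%) and 0 in each of the other classes. Their median log2 ratios lay between -0.76 in epithelium and 0.14 in nonclassical monocytes, beside -0.08 and 0.0036 over all genes tested in those classes. Cd36, whose product binds thrombospondins and lipids, was called lower in 4 classes. It was 14.3 CPM with the KO label and 161 CPM with the WT label in classical monocytes, 25.9 and 173 CPM in the Aif1-led cluster alone, and 450.0 and 1321 CPM in nonclassical monocytes. It was also lower in interstitial macrophages (270.2 and 642 CPM) and stroma (0 and 136 UMIs).

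Serpinb2, an inhibitor of urokinase, was 2.81 and 6.63 CPM in classical monocytes. In endothelium Vwf, which encodes the von Willebrand factor that tethers platelets, was 120.1 CPM (48 UMIs) with the KO label and 355 CPM with the WT label, giving a ratio of 0.338, and the thrombin receptor gene F2r was 7.51 CPM (3 UMIs) and 28.1 CPM. In alveolar macrophages Cpb2, which encodes an inhibitor of fibrinolysis, was 0.307 and 3.10 CPM. Of the interstitial macrophage class, Anxa2 was 468 and 1169 CPM, Cd47 432 and 951 CPM, Tgm2 342 and 705 CPM, and Gas6 151 and 70.1 CPM. The stromal calls Serpine2, Tgm2 and Thbs2 rest on 3, 6 and 2 KO-labelled UMIs. In epithelium Serping1, S100a10, Vkorc1 and Gas6 were lower and Tgm2 and Lrp1 higher, in the class whose cells changed with the clustering.

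The pattern of each member over 14 classes of both libraries, 25 points in all, was set beside that of 12164 other genes by Pearson's r of log2(CPM + 1). These points share libraries and depth, so r is a description. F7 was most like Slc9a4 (r = 0.968) and the mannose receptor gene Mrc1 (r = 0.9504). F10 was most like Clec4a3 (r = 0.953) and the lysozyme gene Lyz2 (r = 0.940). F5 was most like Pla2g7 (r = 0.909) and Slc11a1 (r = 0.894), and Thbs1 most like Ptgs2, the inducible cyclooxygenase gene (r = 0.890), and Pla2g7 (r = 0.874). F3 was most like Steap4 (r = 0.905) and Gpc3 (r = 0.864). Prtn3 was 1 of the 2 genes most like F13a1 (r = 0.827). Plau was nearest to Flrt3 (r = 0.839) and Egr2 (r = 0.808), Plaur to Cyp4f18 (r = 0.820) and Pira13 (r = 0.799), and Tfpi to Aplp1 (r = 0.848) and Kank3 (r = 0.803). Among the members themselves F5 and Thbs1 were most alike (r = 0.82) and F5 and Tfpi least alike (r = -0.51), while F7 and F10, neighbours on the chromosome, had r = 0.48.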

How the data were processed

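Droplet RNA sequencing of live lung cells was analysed for 1 library per label. The authors deposited raw UMI counts per gene and called cell, made with Cell Ranger 9.0.1 and without normalization; the build in the submitters' notes is GRCm39. Removal of doublets or free RNA before deposit is not given in the sources used here. The 18 antibody tags in the files were not used here.

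The paper's cell filters were applied: a cell needed 500 UMIs, 200 genes and a mitochondrial share of at most 20%, which dropped 205 KO-labelled and 173 WT-labelled cells. Ribosomal, mitochondrial and Gm- genes (9531) were not used. For clustering, each cell was brought to a total of 10000, log values were taken, and z-scores were capped at 10. The variable genes (2000), without the 9 members and the 46 pathway genes, gave 50 principal components, 15 neighbours and 38 Leiden clusters at resolution 0.8 (Python 3.11.15, scanpy 1.11.5, leidenalg 0.10.2, scipy 1.17.1, R 4.3.3 for the loess fit). A cluster was named where at least 3 markers of a type were raised 1.5-fold and seen in 5% of its cells; limits on naming were set after seeing the data, and 13 clusters stayed unnamed, 9 of them because 50% or more of their cells were called doublets. Scrublet called 346 and 1137 doublets, which were kept. CPM was computed from UMIs summed over a class; ratios have exact conditional binomial 95% intervals and shares Clopper-Pearson ones, covering counting error only. The steps were tested on simulated data.

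The members, the marker lists and the wider list were chosen with earlier results of these data known. Named beyond the members were genes of the wider list with at least 100 UMIs in a class and called there, and the 2 genes most like each member among those with at least 100 UMIs in each library. A few genes that this rule names are not reported here. Alternatives changed the clustering, doublets, CPM denominator, minimum UMIs and weighting of cells; 3 were added after seeing the data (shared barcodes, epithelial cells with a Ly6c2 or Ccr2 UMI, and called doublets dropped without a new clustering).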

Additional observations from a re-analysis of the deposited data

Results flagged for a closer look

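The sign of the difference between the labels changed between classes for F7 and F10. The log2 ratio of F7 was 2.05 in classical monocytes and -2.01 in interstitial macrophages, a difference of 4.06. The log2 ratio of F10 was 4.77 in epithelium and -1.49 in interstitial macrophages, a difference of 6.26. With 1 library per label neither difference was tested. The interstitial values rest on 27 KO-labelled cells, and the F10 direction in that class changed with the clustering. In epithelium the F10 ratio fell below 1 at a coarser clustering, where the KO-labelled UMIs were too few to give a direction.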

How the results depend on the processing

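No paired analysis was possible because each label has 1 library and no test was run. The reported setting gave 12 higher and 6 lower calls over the 7 main classes. Of the higher calls, 3 were in alveolar macrophages, at levels below those of B or T cells. Higher calls became 19 at resolution 1.2 and with at least 2000 UMIs per cell, and 4 with doublets left out before clustering. They became 5 when KO-labelled and WT-labelled cells were clustered separately. Lower calls became 3 with at least 2000 UMIs and 2 with separate clustering. The members tested and the share of all genes called under these alternatives are not given here. A change in these counts therefore cannot be told from a change in the calls over all genes. Separate clustering named no KO-labelled cell interstitial macrophage, endothelium, epithelium or stroma, and 5 of 9 genes kept their highest class under the WT label.

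In classical monocytes the log2 ratio of F10 (reported 1.204) was 0.99 with doublets left out, just under the 2-fold, and 1.44 with separate clustering. That of F13a1 (0.26) was -0.0058 at resolution 1.2, -0.59 with doublets left out, 0.66 with separate clustering and 0.19 as a mean over cells. That of F5 (0.37) was 0.26, -0.15 and 0.68 under the first 3 of these. That of Thbs1 (-0.30) was -0.40, -0.68 and -0.034 under them, -0.34 as a mean over cells and -0.34 over all gene UMIs. Plaur (-0.031) was 0.085 with separate clustering. Leaving out doublets before clustering, as in these values, left 3692 and 118 cells in this class. Dropping the called doublets without a new clustering left 4806 and 422. The 8 recomputed ratios of a gene in its highest class then all stayed within the reported interval. F7 in alveolar macrophages (0.23) was 0.18 at resolution 1.2, 0.18 with at least 2000 UMIs and 0.16 with separate clustering, and F3 in epithelium (-2.03) was -1.37 at resolution 0.5 and -1.25 with doublets left out.

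Among called genes the direction reversed in epithelium for Plaur (-0.94) and Thbs1 (-2.03) at resolution 0.5. The F10 value there (-1.53) rests on too few KO-labelled UMIs to give a direction. It reversed there for Plaur (-1.08) and Thbs1 (-1.88) with doublets left out. In interstitial macrophages it reversed for F10 at resolution 1.2 (1.33) and with at least 2000 UMIs (1.07). Some ratios that were not called changed sign too. Examples are F13a1 and F5 in classical monocytes with doublets left out before clustering, and F13a1 in interstitial macrophages at resolution 1.2. The cause was not tested. Of 378 other recomputed ratios, 304 stayed within the reported interval and 344 kept their sign. Low UMI counts limit Plau in every class but alveolar macrophages. The small number of cells limits all genes in KO-labelled stroma (22 cells), neutrophils (8) and interstitial macrophages (27).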
